A study of Mus musculus with 2 samples.

Results

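The genes that build cholesterol and fatty acids were examined in mouse liver lacking MMP-14, a metalloproteinase anchored in the cell membrane. The list held 31 genes chosen by name, of which 28 had a probe with a gene name, among 16390 named genes on the array. Hmgcs1, Fdps and Acat2 had no probe named here and were not analysed. The 28 genes comprised 16 of the sterol branch, 7 of the fatty acid branch and 5 regulators of both.

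Knockout (MMP-14 KO) was compared with wild type on 2 arrays read in 2 colours. The E14 array carried Dlk+ cells, a fraction rich in the bipotent progenitors of hepatocytes and bile duct cells, sorted as CD45-, CD71- and Ter119- from livers labelled E14 (E14.5 in the design text), with 100000 cells from 3 livers of each genotype. The P1 array carried whole-liver RNA mixed from 2 livers of each genotype. Its labels give P1, postnatal day 1, and the design text E18.5, and this conflict was not settled. The allele, strain, sex and feeding state are not given in the sources used here, and the knockout is named only as MMP-14 KO. Wild type was in Cy5 and knockout in Cy3 on both arrays, with no dye swap, so an effect of the dye on a gene and an effect of genotype cannot be told apart. Each comparison was 1 array of pooled RNA, so no test was made and no value has an error between animals.

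Cholesterol is made from acetyl-CoA through mevalonate, isoprenoid units, squalene and lanosterol, and fatty acids are made from acetyl-CoA through malonyl-CoA. In hepatocytes both pathways are controlled by transcription factors held in the endoplasmic reticulum as precursors, SREBP2, encoded by Srebf2, which acts mainly on sterol genes, and SREBP1, encoded by Srebf1, which acts mainly on fatty acid genes. The escort protein Scap carries the precursors to the Golgi when sterols are low, and the Insig proteins hold Scap back when sterols are ample. Srebf1 and its targets are also raised by insulin, and suckling, fasting and birth alter hepatic lipid synthesis.

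Values are scanner signals in arbitrary units, and log2 ratios of knockout over wild type after normalisation, in which 0 means equal. A channel was detectable above the threshold set by blank spots, 44.3 for wild type and 85.1 for knockout on the E14 array, and 50.5 and 87.0 on the P1 array. The knockout channel was the brighter, with a median knockout to wild-type signal ratio of 2.19 on the E14 array and 1.56 on the P1 array, so raw signals of a gene are to be read against these factors. The only spread available within an array was that between probes of the same gene, with an SD of 0.12 in log2 units on the E14 array and 0.22 on the P1 array, each over 139 genes with several detectable probes. Every member had 1 probe. A change of at least 1.5-fold, 0.585 in log2, was counted. The targeted gene Mmp14 had log2 ratios of -1.13 (signals 131 and 132) on the E14 array and -1.30 (161 and 104) on the P1 array. Whether its probe falls inside the deleted part is unstated in these sources, so whether it checks the labels is unknown. The wild-type channel of the P1 array also held lung epithelial transcripts: of 15 markers, 9 were detectable in both channels, each of them lower in knockout by more than the 1.5-fold limit, and 6 in wild type alone, with summed signals of 40763 in wild type and 1685 in knockout. Of all genes detectable in both P1 channels, 4.12% were lower by 1.5-fold or more. On the E14 array the same markers summed to 731 and 1472, and 7 were not detectable in either channel.

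In whole liver labelled P1, genes of sterol synthesis had more signal in the knockout. Of the 15 sterol genes detectable in both channels, 13 had a ratio above 0, 7 were higher by 1.5-fold or more and 0 were lower by as much. Among all 12715 genes detectable in both channels, 2.84% were higher by 1.5-fold or more, 4.12% were lower by as much, and 49.6% were above 0. Ratios of 2-fold or more were read for 4 sterol genes upward, against 0.558% of all genes, and for 0 downward, against 1.45%. The sterol branch had a median log2 ratio of 0.58, against -0.0017 for all genes, and in 9 other ways of processing its median ranged from 0.48 to 0.82.

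The mevalonate part of the pathway had 3 detectable genes, all above 0, against 49.6% of all genes. Mvk, which encodes mevalonate kinase, had a signal of 101 in wild type and 215 in knockout, a log2 ratio of 0.581. Mvd, the mevalonate diphosphate decarboxylase that follows, stood at 97.4 and 197, a ratio of 0.50. Both were dim in wild type, where the threshold was 50.5. Idi1, the isomerase that makes the isoprenoid building block dimethylallyl diphosphate, was the second highest member, with 109 in wild type and 460 in knockout. Its ratio was 1.59, or 3.02-fold, and 2.20 in the authors' deposited table. Pmvk, phosphomevalonate kinase, was not detectable in either channel, with signals of 47.4 and 83.2.

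From squalene onward, 6 of 11 genes were past the 1.5-fold limit upward, against 2.84% of all genes, and 9 were above 0, against 49.6%. Fdft1, squalene synthase, stood at 415 in wild type and 930 in knockout, a ratio of 0.592, just past the 1.5-fold limit of 0.585. Mvk and the sterol transfer protein gene Stard4 (144 and 304, ratio 0.579) fell just short of it. Sqle, squalene epoxidase, had 323 and 829, a ratio of 0.81. Lss, which closes squalene epoxide to lanosterol, lay below its neighbours in the pathway: its signals of 460 and 655 gave a ratio of -0.06.

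The enzymes that strip the methyl groups from lanosterol included the highest ratio. Cyp51, the lanosterol demethylase, had 121 in wild type and 415 in knockout, a ratio of 1.29. Msmo1, the sterol C4-methyl oxidase (Sc4mol in the array's annotation), was the highest of all members, with 255 and 1814. This was a ratio of 2.25, or 4.76-fold, and 2.63 in the authors' deposited table. The other enzymes of C4 demethylation were also past 1.5-fold: Nsdhl, the decarboxylating dehydrogenase, at 119 and 276 (0.72), and Hsd17b7, the ketoreductase, at 346 and 1057 (1.05). Nsdhl fell short of 1.5-fold with the local background used in the correction (0.48).

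The remaining reductases, isomerase and desaturase of the pathway lay closer to 0. Tm7sf2, a sterol C14 reductase, stood at 331 and 597 (0.30), and Ebp, the sterol isomerase, at 1167 and 1601 (-0.18). Ebp turned to 0.27 under median centring and Lss to 0.28. Sc5d, the lathosterol oxidase, stood at 463 and 914, a ratio of 0.40 that became 1.81 with the local background used in the correction and 3.17 with it subtracted. Dhcr7, which makes cholesterol from its dehydro precursor, was dim, at 60.5 and 112. Its ratio of 0.24 stood at 0.82 in the authors' deposited table, at 0.015 when the correction used the local background and at 0.06 when that was subtracted.

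**Figure D1:**
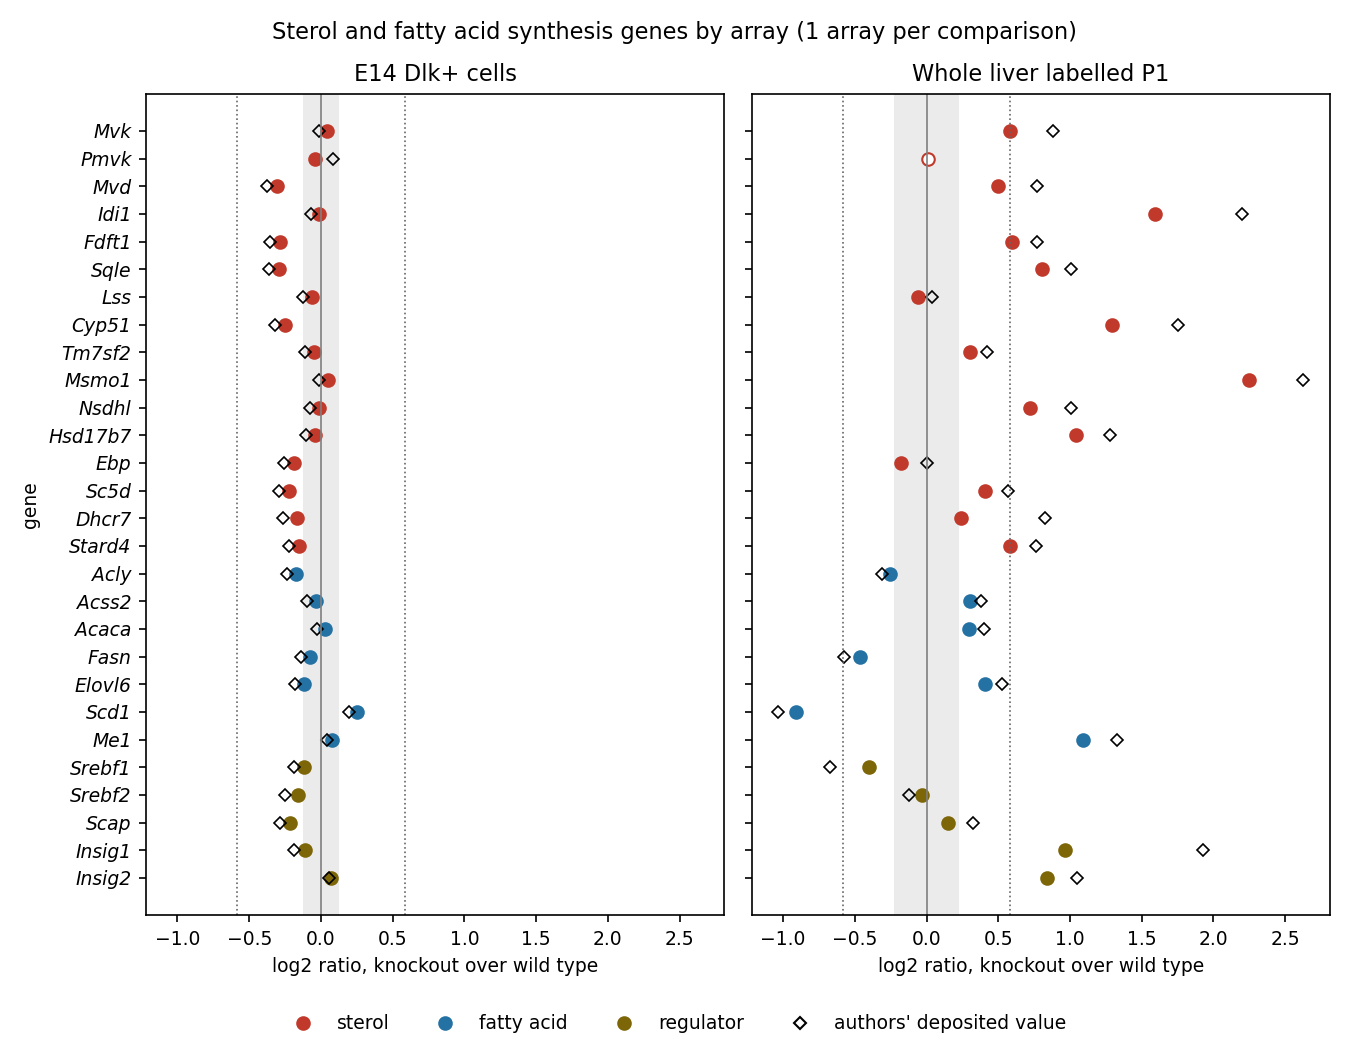
Log2 ratio of knockout over wild type (x axis) for each of the 28 genes (y axis, in pathway order) on the E14 array (left) and the P1 array (right); filled circles are the reported values coloured by branch, the open circle is a gene not detectable (Pmvk, P1), diamonds are the authors' deposited values. Dotted lines mark 1.5-fold and the grey band is 1 SD between probes of a gene; on the P1 array Msmo1 (2.25), Idi1 (1.59) and Cyp51 (1.29) lie farthest to the right and Scd1 (-0.91) farthest to the left, while on the E14 array no gene crosses the dotted lines.

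The promoters of members that were past 1.5-fold in the P1 knockout and have a single start site in the table used are shown so that their shared letters can be seen, with that of Fasn, the lowest member with a single start. SREBP proteins bind sterol regulatory elements and act there together with NF-Y, which binds CCAAT boxes, and SP1, which binds GC boxes. The sequences are the 160 bases upstream of the start, from RefSeq, build GRCm38.p6, written 5′ to 3′ on the gene's strand. Capitals mark CCAAT or its reverse ATTGG, and the E-box CACGTG, and at Fasn a CCAAT and an ATTGG overlap.
Msmo1 (chr8:64733579-64733738, minus strand): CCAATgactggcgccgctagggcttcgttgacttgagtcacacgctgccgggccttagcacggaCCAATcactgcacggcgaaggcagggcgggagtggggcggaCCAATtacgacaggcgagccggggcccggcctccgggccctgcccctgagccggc
Idi1 (chr13:8885446-8885605, plus strand): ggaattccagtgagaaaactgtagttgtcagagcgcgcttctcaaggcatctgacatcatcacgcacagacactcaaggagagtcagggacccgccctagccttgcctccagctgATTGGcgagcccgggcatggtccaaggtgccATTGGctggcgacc
Cyp51 (chr5:4104698-4104857, minus strand): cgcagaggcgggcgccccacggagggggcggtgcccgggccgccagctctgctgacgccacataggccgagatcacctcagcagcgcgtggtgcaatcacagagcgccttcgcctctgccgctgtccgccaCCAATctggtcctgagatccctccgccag
Hsd17b7 (chr1:169969206-169969365, minus strand): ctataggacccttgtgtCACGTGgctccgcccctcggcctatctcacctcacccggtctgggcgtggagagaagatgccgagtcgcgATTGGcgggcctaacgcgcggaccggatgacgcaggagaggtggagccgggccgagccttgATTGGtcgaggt
Insig1 (chr5:28071252-28071411, plus strand): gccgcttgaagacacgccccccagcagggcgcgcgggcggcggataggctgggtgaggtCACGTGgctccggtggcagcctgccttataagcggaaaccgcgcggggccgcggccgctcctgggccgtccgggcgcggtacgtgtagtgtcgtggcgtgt
Nsdhl (chrX:72918361-72918520, plus strand): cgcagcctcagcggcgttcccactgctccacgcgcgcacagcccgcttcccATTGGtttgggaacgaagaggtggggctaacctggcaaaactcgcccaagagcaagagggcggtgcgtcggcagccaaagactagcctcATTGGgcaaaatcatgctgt
Fasn (chr11:120824548-120824707, minus strand): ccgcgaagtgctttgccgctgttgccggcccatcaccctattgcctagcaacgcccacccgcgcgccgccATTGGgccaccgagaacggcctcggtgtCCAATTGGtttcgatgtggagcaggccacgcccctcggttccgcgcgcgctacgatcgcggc

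Over the whole 300-base promoter, from 250 bases before to 50 after the start, 26 of the 31 listed genes matched the table by symbol. CCAAT on either strand was present in 14 of 15 sterol genes, 4 of 6 fatty acid genes and 4 of 5 regulators, against 41.1% of 27025 genes in the table. Some genes have several promoters in the table. Counted per promoter, it was in 77.8% of 18 sterol, 57.1% of 7 fatty acid and 50% of 10 regulator promoters, and in 37.4% of all 32851. Of the genes shown, Nsdhl held 4, Msmo1 and Hsd17b7 each held 3, Idi1 held 2, Cyp51 and Insig1 each held 1, that of Insig1 outside the bases printed, and Fasn, which was not higher, held 3. The GC box GGGCGG was in 14 of 15 sterol genes, 3 of 6 fatty acid genes and 5 of 5 regulators, against 38.2% of all genes. Per promoter the shares were 83.3%, 42.9% and 80%, against 35.7% of all. CACGTG was in 3 sterol genes, 0 fatty acid genes and 2 regulators, against 8.09% of all genes. Per promoter the shares of CACGTG were 16.7%, 0% and 30%, against 7.15% of all. The sterol regulatory element, searched as TCACNCCAC on both strands, was in 1 sterol gene, Hmgcs1, which had no named probe, against 1.44% of all genes. Absence of these letters from this window says nothing about binding of a factor, and a match is a description, not a site.

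The fatty acid branch had ratios on both sides of 0 on the P1 array. Among its 7 genes 4 ratios were positive and 3 negative, near the 49.6% of all genes above 0. The 1.5-fold limit was passed by 1 gene in each direction, against 2.84% of all genes upward and 4.12% downward. Me1, the cytosolic malic enzyme (Mod1 in the array's annotation), which supplies NADPH, stood at 347 in wild type and 1097 in knockout, a ratio of 1.09, or 2.13-fold. Scd1, the desaturase that makes oleate from stearate, went the other way, with 414 in wild type and 324 in knockout. Its ratio was -0.91, or 1.88-fold lower, and -1.04 in the authors' deposited table.

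The genes between these held smaller ratios. Fasn, fatty acid synthase, stood at 274 and 288, a ratio of -0.46, and Acly, which makes cytosolic acetyl-CoA from citrate, at 255 and 308 (-0.25). Fasn was below 0 in all 9 alternatives, and those that could alter its ratio gave -0.87 to -0.25. Acly turned to 0.44 with the local background used in the correction and 1.12 with it subtracted. Elovl6, the elongase that extends palmitate, stood at 187 and 352 (0.41), Acss2, the acetyl-CoA synthetase, at 142 and 247 (0.30), and Acaca, acetyl-CoA carboxylase, at 283 and 503 (0.29). Synthase and desaturase thus lay below 0 while carboxylase and elongase lay above it. Surfactant-making lung cells also express Fasn, Scd1 and Srebf1, and the part of the lung transcripts in these ratios was not tested.

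Among the regulators, both Insig genes were past the 1.5-fold limit upward in the P1 knockout, against 2.84% of all genes, and neither SREBP gene was. Insig1, itself a target of SREBP, stood at 70.1 in wild type and 197 in knockout, a ratio of 0.97. Its wild-type signal was near the threshold of 50.5, and its ratio was 1.93 in the authors' deposited table and 0.57 with the local background used in the correction. Insig2 stood at 463 and 1245, a ratio of 0.84. Srebf2 stood at 144 and 201 (-0.03), and its ratio was -0.27 when the correction used the local background and -0.52 when that was subtracted. Srebf1 had a ratio of -0.40, with 171 and 187, and -0.67 in the authors' deposited table. Scap stood at 776 and 1316 (0.15), and its ratio turned to -0.16 with the local background used in the correction.

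**Figure D2:**
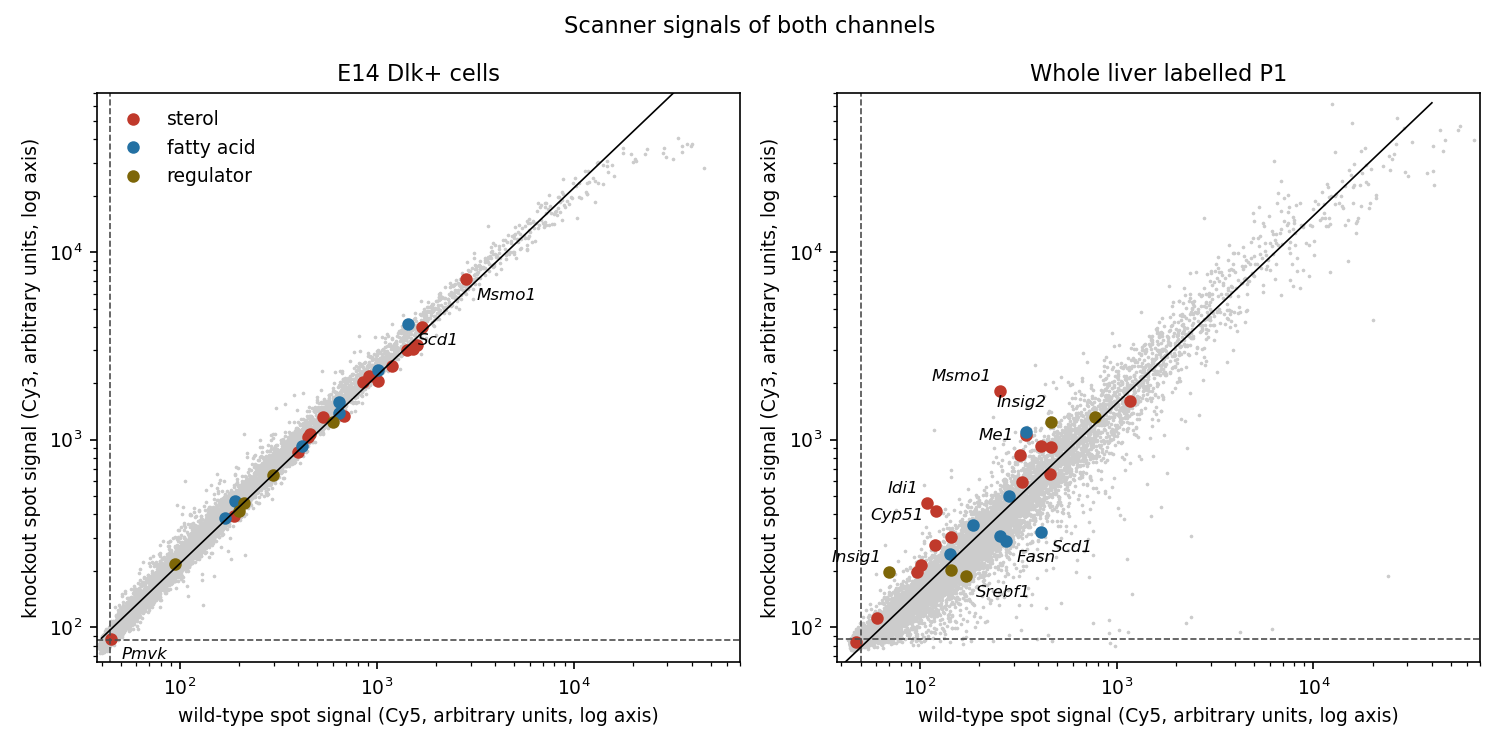
Scanner signal of the knockout channel (y axis, Cy3) against the wild-type channel (x axis, Cy5), both in arbitrary units on log axes, for all named genes (grey) and the 28 members (coloured by branch) on the E14 (left) and P1 (right) arrays. Dashed lines are the detection thresholds and the solid line is the median knockout to wild-type ratio (2.19 and 1.56); on the P1 array Msmo1, at 255 and 1814, lies far above the line and Scd1, at 414 and 324, below it.

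The branches were compared by their medians. On the P1 array the sterol branch median of 0.58 exceeded the fatty acid branch median of 0.29 by 0.29. The difference was positive in all 9 other ways of processing, from 0.21 to 0.45. It was not tested, since each branch was measured on 1 array and its genes are not replicates. The branches overlapped: Me1 at 1.09 was higher than all but 3 of the sterol genes, and Ebp at -0.18 and Lss at -0.06 lay below 4 of the fatty acid genes. Of the 11 members past 1.5-fold on the P1 array, 10 were higher, and 9 of the 11 stayed past 1.5-fold the same way in all 9 alternatives, the exceptions being Nsdhl and Insig1, each in 1 alternative. The threshold of 3 SD, no threshold, no genes read as whole numbers and the brightest probe could not alter any member's ratio. Their agreement, here and for the branch difference, was fixed in advance or nearly so. By the authors' deposited table, higher ratios of 1.5-fold or more were found for 14 members, against 11.9% of all genes, and lower ones for Scd1 and Srebf1, against 12.2%.

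In the sorted E14 cells no member passed the 1.5-fold limit as processed here. All 28 genes were detectable in both channels, with 0 higher and 0 lower by that much, against 0.307% and 0.22% of 12705 genes. The shares of all genes past 2-fold were 0.0157% and 0.0945%. The authors' deposited table also gave 0 members in each direction at 1.5-fold, against 5.38% of all genes higher and 1.22% lower. Other settings did give such members: 3 were higher when the correction used the local background, against 3.83% of all genes. With it subtracted 4 were higher, against 14.2%, and Pmvk was lower, against 7.74%. Under median centring 11 were higher, against 24.8% of all genes. The ratios ran from -0.30 for Mvd (685 and 1340) to 0.25 for Scd1 (1436 and 4147). A ratio above 0 was found for 6 of the 28, against 53.1% of all genes, but this direction depended on the processing. The sterol branch median was -0.11 and the fatty acid branch median -0.03, and they became 0.52 and 0.62 under median centring, where the median of all genes was 0.28, and 0.12 and 0.07 when the correction took the local background into account.

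Of the genes that led on the P1 array, some were close to 0 on the E14 array and others below it. Msmo1 stood at 2853 in wild type and 7179 in knockout, a ratio of 0.05, Idi1 at 850 and 2037 (-0.01), and Me1 at 191 and 470 (0.08). Cyp51 stood at 1012 and 2061 (-0.25), Sqle at 1536 and 3041 (-0.29) and Fdft1 at 1609 and 3195 (-0.29). The ratios of Cyp51, Sqle and Fdft1 lay below 0 by more than the SD between probes of a gene, 0.12. They were -0.32, -0.36 and -0.36 in the authors' deposited table. Under median centring they turned to 0.46, 0.43 and 0.44, where the median of all genes was 0.28. With the local background used in the correction they were -0.16, 1.36 and 0.18. The regulators were read at -0.21 for Scap, -0.16 for Srebf2, -0.12 for Srebf1, -0.11 for Insig1 and 0.07 for Insig2, and under median centring all 5 were above 0.

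**Figure D3:**
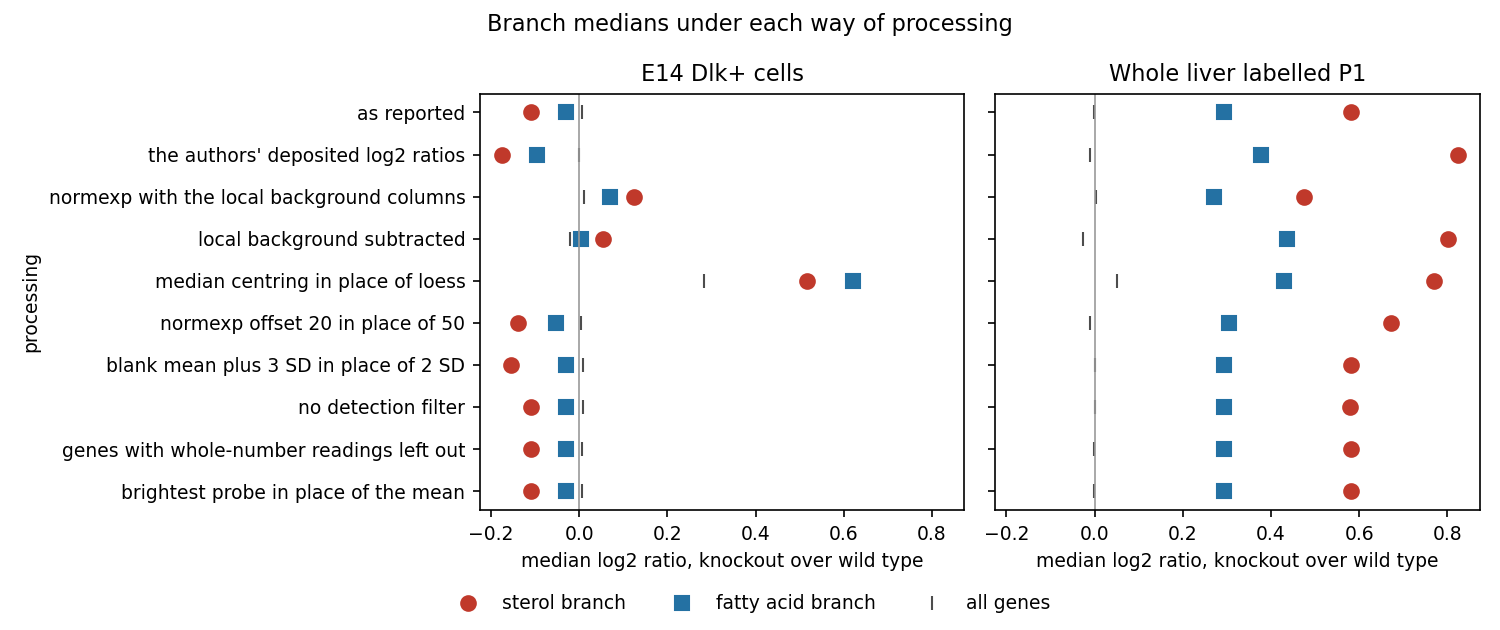
Median log2 ratio of knockout over wild type (x axis) of the sterol branch (circles), the fatty acid branch (squares) and all genes (bars) under each way of processing (y axis), for the E14 (left) and P1 (right) arrays. On the P1 array the sterol median lies between 0.48 and 0.82 and to the right of the fatty acid median throughout; on the E14 array both medians change sign with the treatment of background and with median centring.

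Levels in the same channel were also set side by side across the arrays, after normalisation within and between arrays. Only genes detectable in all 4 channels were used, which left out Pmvk. In wild type, all 15 remaining sterol genes were lower on the P1 array than on the E14 array, with a median difference of -2.56 in log2 units, against -0.06 for 11802 genes, of which 6924 were below 0. The largest difference was that of Msmo1, at -3.72, followed by Cyp51 (-3.39), Nsdhl (-3.30) and Idi1 (-3.28). In knockout, 14 of 15 were lower, with a median of -1.53, and Hsd17b7 stood at 0.46. The difference was -1.53 for Msmo1, -1.85 for Cyp51 and -1.67 for Idi1. The P1 knockout level of these genes lay between the P1 wild-type level and the E14 level. They had the highest P1 ratios of all members, and the P1 wild-type channel enters both that ratio and the wild-type difference. Their intermediate place thus follows in part from how they were picked. That channel also held the lung transcripts.

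Fatty acid genes showed a median difference of -1.47 in wild type and -1.17 in knockout. Scd1 differed by -2.18 in wild type and by -3.34 in knockout, and Me1 was higher on the P1 array in both, by 0.63 and 1.64. Insig2 had the largest positive difference of the 27 genes, 2.09 in wild type and 2.86 in knockout, whereas Insig1 stood at -1.96 and -0.88. The first array held sorted cells and the second whole liver, so stage and cell content cannot be told apart in these differences.

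**Figure D4:**
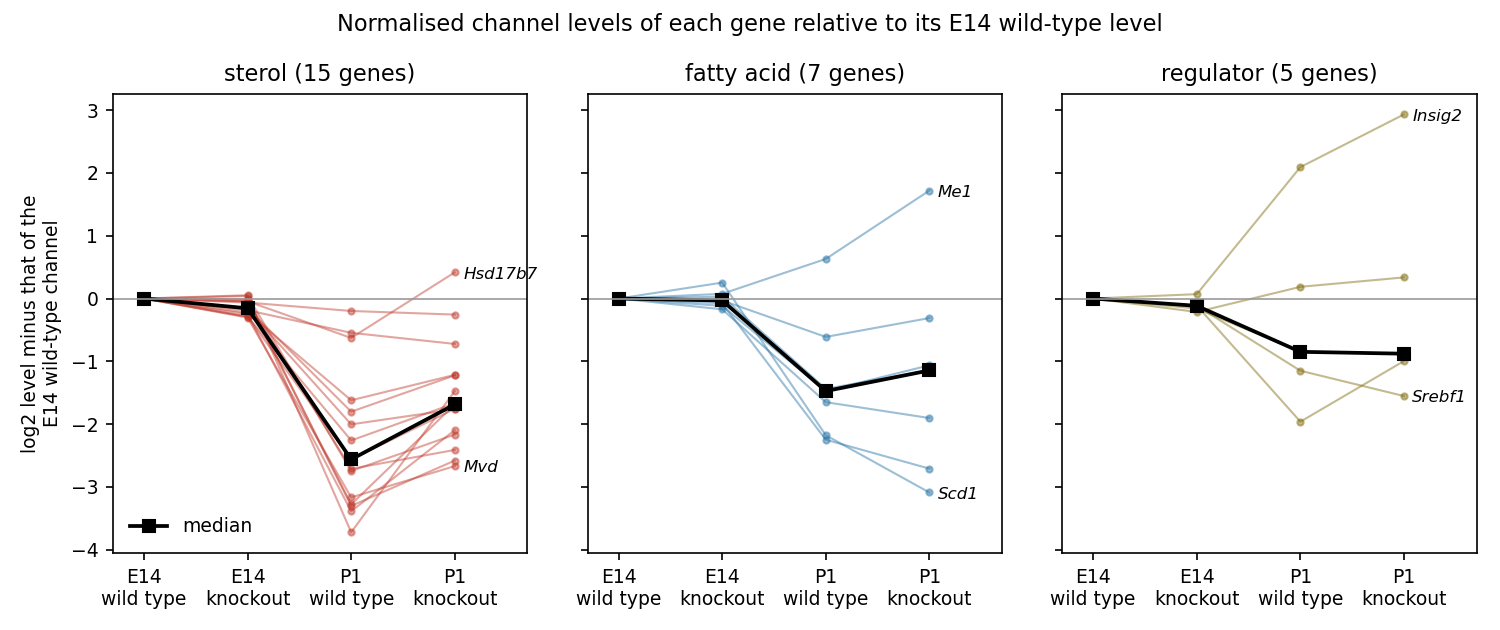
Log2 level of each gene in the 4 channels (x axis) minus its level in the E14 wild-type channel (y axis), after normalisation within and between arrays, for the sterol (15), fatty acid (7) and regulator (5) genes; thin lines are genes and black squares are medians. The sterol median stands at -2.56 in the P1 wild-type channel and at -1.69 in the P1 knockout channel. Me1, Insig2 and Scap lie above 0 in both P1 channels, and the sterol gene Hsd17b7 in the P1 knockout channel.

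Other genes of the pathways had medians near 0 on the P1 array. In a list of 25 further sterol genes (uptake, transport, esterification and control), 18 were detectable in both P1 channels. Of these, 8 were above 0 and 1 was past the 1.5-fold limit in each direction, with a median of -0.01. Of all genes detectable in both P1 channels, 49.6% were above 0, 2.84% were past the limit upward and 4.12% downward. The higher one was Tmem97, a sterol-responsive endoplasmic reticulum protein, at 345 and 1034 (1.02). The lower one was Npc2, which hands cholesterol out of lysosomes, at 2229 and 1261 (-1.48).

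In a list of 28 further lipogenic genes, 23 were detectable in both P1 channels, with a median of -0.10. Past the 1.5-fold limit were 3 upward and 1 downward, against 2.84% and 4.12% of all genes. Lpin1, a phosphatidate phosphatase, stood at 118 and 1125 (2.73), Pnpla2, the adipose triglyceride lipase, at 457 and 1303 (0.92), and Gpam, which starts glycerolipid synthesis, at 69.6 and 164 (0.69). Plin2, the lipid droplet coat protein, was at -0.61, and its ratio was -0.07 under median centring. Scd2 stood at -0.38 and Mlxipl, which encodes the carbohydrate-responsive factor ChREBP, at 0.11.

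Of 17 targets of the oxysterol receptor LXR and bile acid genes, 3 passed the 1.5-fold limit upward and 0 downward on the P1 array. These were Abcg5, a canalicular sterol exporter subunit (1.37), Cyp27a1, sterol 27-hydroxylase (0.89), and Cyp7a1, which starts bile acid synthesis (0.71). Abcg8, the partner of Abcg5, stood at 0.46 and Abca1 at -0.04. The list had a median of 0.05, and the shares of all P1 genes past the limit were 2.84% upward and 4.12% downward. On the E14 array, 0 genes of these 3 lists passed the 1.5-fold limit, against 0.307% of all genes upward and 0.22% downward.

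Markers of other cells also differed between the P1 channels, and their part in the ratios above was not tested. The 9 lung markers detectable in both channels had a median of -4.43, led by Sftpc, a surfactant protein, at -7.85. All 5 erythroid markers lay below 0, as did 6411 of all 12715 genes, with a median of -1.10 and summed signals of 5907 and 4663. Endothelial markers had a median of -0.79 (3042 and 2304), and 4 of 5 passed the 1.5-fold limit downward, against 4.12% of all genes. Stellate and fibroblast markers had a median of -0.14 (3275 and 3163), or -0.57 in the authors' deposited table. Of these 7, 5 were below 0, and Col3a1 was lowest at -1.93. Macrophage markers had a median of -0.16 (3811 and 6124), or -0.36 in the authors' deposited table. In bulk liver, fewer cells of a type and less RNA per cell cannot be told apart.

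Tissues rich in lipid synthesis were also looked for. The adipocyte markers Adipoq, Lep and Cfd were not detectable in either P1 channel. Fabp4 was well above both thresholds, at 1468 in wild type and 1829 in knockout (-0.33). Plin1, Ucp1, Cidea and Retn were detectable in both channels but dim, at most 63.2 and 103. Of 5 detectable markers 0 passed the 1.5-fold limit, against 2.84% of all genes upward and 4.12% downward. The adrenal markers Star and Nr5a1 were not detectable in either channel. Cyp21a1 and Mc2r were detectable in knockout alone, at 91.1 and 88.5, near the threshold of 87.0. Of 3 detectable in both, Hsd3b1, a steroid dehydrogenase, stood at 441 and 368 (-0.82). The others were Fdx1 at 1222 and 2651 (0.47) and Cyp11a1 at 57.9 and 91.8 (-0.08). Among hepatocyte markers, 9 were detectable in both channels of each array. On the P1 array 2 of them passed the 1.5-fold limit upward, Tat (1.73) and Cps1 (1.06), against 2.84% of all genes. Downward were 5, against 4.12%. Of these 4, Alb, Ttr, Apoa1 and Apoa2, had a reading given as a whole number. Such readings began at 37242 in wild type and 33958 in knockout on this array. The other was Cyp2e1, at 14436 and 13863 (-0.82). Hnf4a stood at 0.31. On the E14 array 5 of the 9 were lower by more than 1.5-fold, against 0.22% of all genes, and the median was -0.76. These were Alb, Ttr, Apoa1, Apoa2 and Afp, each with a reading given as a whole number. Under median centring only Ttr stayed past the limit, at -0.60. Alb then stood at -0.54, Afp at -0.49, Apoa2 at -0.29 and Apoa1 at -0.003, where the median of all genes was 0.28. As reported, Hnf4a stood at -0.12 on the E14 array, while Tat, Cps1 and Cyp2e1, which mark mature hepatocytes, were near the threshold. Stellate and fibroblast markers on the E14 array had a median of 0.46. Of these, 3 of 7 were past the 1.5-fold limit upward, against 0.307% of all genes.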

How the data were processed

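The 2 scanner files hold deposited, unnormalised spot intensities for each channel and a local background, per the file headers. The value table gives the authors' normalised log2 ratio, knockout to wild type, per the labels. Set against the scanner values, the authors' log2 values correlated at 1.00 with channel ratios from which the blank mean had been subtracted, and the column medians were 7.21e-07 (E14) and -2.74e-05 (P1). The scanner software and a genome build are not given in the sources used here.

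The ratios reported come from limma 3.58.1 (R 4.3.3): normexp with an offset of 50, leaving out the local background, which followed the spot signal (Spearman correlation 0.90 to 0.97), then loess within the array with control spots at weight 0. The steps were tested on simulated data. The offset shrinks ratios of dim genes. Detection used the mean plus 2 SD of blank spots after 5 percent was removed at each end. The 4 quality-flagged spots of the E14 array were left out. Symbols were updated through a RefSeq table of GRCm38.p6. Of 23473 probes, 16631 had 1 symbol and 6842 were unnamed here. Promoter letters were searched on both strands.

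The members, lists and settings were chosen with earlier results of these data known. Named were all members, Mmp14, up to 5 genes past 1.5-fold of each further pathway list with some genes fixed by name, and up to 3 genes with the largest change of each marker list; other genes named from these lists were chosen after their values were seen. The 9 alternatives were the authors' values, 2 uses of the local background, median centring, an offset of 20, a threshold of 3 SD, no threshold, no genes read as whole numbers, and the brightest probe.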

Additional observations from a re-analysis of the deposited data

Results flagged for a closer look

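Several genes had ratios on opposite sides of 0 on the 2 arrays, past 1.5-fold on the P1 array and beyond the SD between probes on the E14 array. That SD comes from genes with several probes and is not an error of these members, which have 1 probe each. The share of all genes that meet this rule was not determined. The P1 ratio minus the E14 ratio was 0.88 for Fdft1 (-0.29 on E14 and 0.59 on P1), 1.10 for Sqle (-0.29 and 0.81), 1.54 for Cyp51 (-0.25 and 1.29) and -1.17 for Scd1 (0.25 and -0.91). With 1 array each the differences were not tested. The E14 ratios of Fdft1, Sqle and Cyp51 turned positive under median centring (0.44, 0.43 and 0.46), where the median of all genes was 0.28. With the local background used in the correction they were 0.18, 1.36 and -0.16. In the authors' deposited table all of them were below 0 (-0.36, -0.36 and -0.32). The arrays held different cells.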

How the results depend on the processing

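On the P1 array both branch medians and their difference stayed above 0 in all 9 alternatives, and the count of members at least 1.5-fold higher ranged from 10 to 15, the highest with the local background subtracted (against 18.4% of all genes) and under median centring (10.2%). The P1 sterol median was 0.82 in the authors' values, and the count of members at least 1.5-fold lower was 2 there (12.2% of all genes) and 3 with the local background subtracted (14.8%). The E14 sterol median became 0.12 with the local background used in normexp, 0.054 with it subtracted and 0.52 under median centring. The E14 fatty acid median became 0.62 under median centring, and the sterol minus fatty acid difference, -0.08 as reported, was 0.054 with the local background in normexp and 0.050 with it subtracted. The E14 count of members at least 1.5-fold higher was 3 with the local background in normexp (3.83% of all genes), 4 with it subtracted (14.2%) and 11 under median centring (24.8%, where the median of all genes was 0.28), and 1 was lower with it subtracted (7.74%). The cause was not tested. No member past 1.5-fold changed sign in any alternative. Leaving out genes read as whole numbers and using the brightest probe changed no member's value, since no member had such a reading or a second probe. The threshold of 3 SD and no threshold also left each member's ratio as it was, and could alter only which genes were counted. No paired analysis was possible because each comparison was 1 array. The number of arrays limits the precision. Among single members, subtracting the local background moved P1 Idi1 to 4.95 and P1 Sc5d to 3.17.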
